A study of Mus musculus with 2 samples.

Results

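The neutrophil-like cells described here are the cells of the wounded mouse cornea library that the deposited table of cells assigns to cluster 13. There were 710 of them among the 12417 cells of that library and the 28867 cells of the series. The series holds 1 single-cell RNA-seq library per condition. UW pooled the dissociated corneas of 4 unwounded male mice, and W pooled those of 4 male mice 24 h after the central corneal epithelium had been scraped off, with care taken to spare the stroma. No strain is given in the sources used here, the labels name no allele or transgene, and wounds were treated with the antibiotic ofloxacin. Both libraries went through dispase, trypsin and collagenase digestion, so that every value is from cells that survived that dissociation. The cells of the 4 mice were joined before sequencing, and the table of cells used here does not name a cell's animal, so no spread between animals is given and a condition has no replicate check.

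Neutrophils are short-lived white cells that leave the blood within hours of an injury and follow chemokines, complement fragments and formyl peptides into the tissue. They carry ready-made granules, whose proteins are made in the bone marrow in a fixed order, azurophil granules before specific granules and these before gelatinase granules, and their cytosol is rich in calprotectin, the pair of S100A8 and S100A9. In the cornea, which has few leukocytes when it is intact, they enter from the limbal vessels after an abrasion and release cytokines, proteases and oxidants.

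The cluster made up 5.72% of the W cells, with an exact Clopper-Pearson 95% interval of 5.32 to 6.14%. Only 1 of the 16450 UW cells was in cluster 13, and that cell held 1462 UMIs, 17 of *S100a8*, 7 of *Cxcl2* and 6 of *Ccl3* among them. Levels in unwounded corneas can therefore not be given, and the cells were compared with the other immune clusters of W, numbers 14, 15 and 16, with 354, 251 and 215 cells. Of these 1530 immune cells, 46.4% (43.9 to 48.9) were in cluster 13. The libraries held 367166822 UMIs (UW) and 289586482 UMIs (W). Shares and levels have no test, and all intervals cover counting error only. No cell of cluster 13 was named a doublet in any deposited column, and 3 of its barcodes also occurred in UW, out of 52 that the libraries shared.

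Cluster 13 was the shallowest of the 4. A cell held a median of 2509.5 UMIs, the molecular identifiers that count each captured RNA once, with a lowest of 1002 and a highest of 14769. Medians were 8724 UMIs in cluster 14, 10144 in cluster 15 and 4411 in cluster 16. The median number of genes found in a cell was 1082.5, against 1787 to 2931 in the other clusters, and the median mitochondrial share of UMIs was 0.373%, against 1.67 to 2.74%. The summed cells held 1835459 UMIs, so that 1 UMI is worth 0.545 counts per 1000000 (CPM). UMIs of a kit that reads transcript ends count molecules and not length, and levels are given as CPM of the summed UMIs with exact Poisson 95% intervals. Total RNA per cell and capture cannot be told apart, and ratios of CPM compare shares of each cluster's UMIs.

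**Figure D1:**
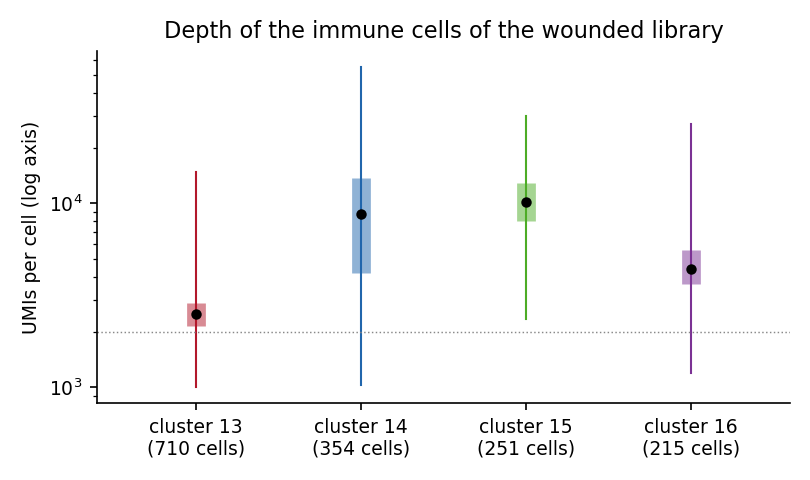
UMIs per cell on a log axis in the 4 immune clusters of W. Black points are medians, thick bars run from the lower to the upper quartile, thin lines from the lowest to the highest cell, and the dotted line is the depth to which cells were thinned for shares. Cluster 13 has the lowest median, 2509.5 UMIs, and 126 of its 710 cells lie under 2000 UMIs.

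All 15 neutrophil markers listed for this work had UMIs in the cluster, with a summed level of 72798 CPM against 5604, 10805 and 469.6 CPM in clusters 14, 15 and 16. They include *S100a8*, *S100a9*, *Il1b*, *Cxcl2*, *Ccl3* and *Clec4d*, the markers given with the cluster, which hold most of that sum. The sum therefore describes the cluster and is no test of its identity. Among the 10 genes of at least 100 CPM that led the cluster by fold over the nearest other cluster were the markers *Retnlg*, *G0s2*, *S100a8* and *Cxcr2*. No UMI of *Cd3e*, *Trdc* and *Foxp3* (T cells), *Flt3*, *Clec9a* and *Ccr7* (dendritic cells), *Cd207* (Langerhans cells), *Cma1* and *Cpa3* (mast cells) or *Cd79a* (B cells) was found, which allows up to 3 counts each. Of the 6 T cell markers the other 3 had UMIs, with a sum of 5.45 CPM against 2782 CPM in cluster 16. For mast cells 2 of 4 had UMIs (4.36 CPM against 1013 CPM in cluster 16). For B cells 1 of the 2 counted had UMIs (1.09 CPM against 5.43 to 9.96 CPM in the other clusters). The 10 monocyte and macrophage markers were all detected and summed to 1499 CPM, against 11779 CPM in cluster 14 and 28815 CPM in cluster 15, and most of that was *Lyz2* (1073 CPM), which neutrophils use as well. *C1qa* stood at 7.08 CPM against 1145 and 1740 CPM in clusters 14 and 15. The 2 eosinophil markers of the table summed to 15.8 CPM. *Siglecf*, a lectin receptor of eosinophils, had 19 UMIs in cluster 13 and 5, 0 and 0 in the others. Of the 8 dendritic cell markers 5 had UMIs, with a sum of 345 CPM against 18806 CPM in cluster 14 and 5633 CPM in cluster 15, most of it *Cd74* (273 CPM).

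Keratin and keratocyte RNA was present in the cluster. *Krt12*, the keratin of corneal epithelium, had a UMI in 100% of the cluster's cells, and 4 keratins summed to 10335 CPM, 35.9% of their level in clusters 0 to 11 of W, outside the immune clusters. The same share was 46.9%, 12.2% and 21.3% in clusters 14, 15 and 16. The part of this RNA in each result was not tested, but the level that it could bring in was computed by scaling the profile of clusters 0 to 11 to the keratins, which gave 50.4 CPM for *S100a8*, 169 CPM for *S100a9*, 15.3 CPM for *Cxcl2* and 1.94 CPM for *Il1b*. Each of those is a small part of the gene's level in cluster 13. The 3 keratocyte markers summed to 1372 CPM, against 770.4, 528 and 905.5 CPM in clusters 14, 15 and 16, and *Dcn* (decorin) had a UMI in 89.9% of the cells and *Lum* (lumican) in 50.9%. In clusters 0 to 11, whose cells were deeper at a median of 22460 UMIs, these shares were 99.2% and 78.2%. In cells thinned to equal depth the order turned. *Dcn* then had a UMI in 82.9% of the cells of cluster 13 and 46.9% of those of clusters 0 to 11, and *Lum* in 38.0% and 31.1%. The scaled profile gave 1287.5 CPM for *Dcn* where cluster 13 held 1013 CPM, and 276 of the 285 CPM of *Lum*. The same sum gave 8072 of the 13672 CPM of *S100a6* and 9072 of the 20316 CPM of *Malat1*, so the levels of these genes in the cluster are uncertain.

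Stretches upstream of the start are shown for *Cxcl2*, the most abundant of the 6 markers, for *S100a9*, a subunit of calprotectin, and for *Retnlg*, which had 436 UMIs in cluster 13 and 1 in the other 3 immune clusters together. Each runs 5′ to 3′ on the gene's strand, from 250 to 51 bases before the start of transcription in RefSeq on GRCm38.p6. *Cxcl2* is at chr5:90903649-90903848 on the plus strand, *S100a9* at chr3:90695772-90695971 on the minus strand and *Retnlg* at chr16:48872358-48872557 on the plus strand. Capitals mark matches, on either strand, to GGG, any 2 bases and TTTCC (an NF-κB motif), TTGCNNAA (a C/EBP motif) or TGANTCA (an AP-1 motif).
Cxcl2: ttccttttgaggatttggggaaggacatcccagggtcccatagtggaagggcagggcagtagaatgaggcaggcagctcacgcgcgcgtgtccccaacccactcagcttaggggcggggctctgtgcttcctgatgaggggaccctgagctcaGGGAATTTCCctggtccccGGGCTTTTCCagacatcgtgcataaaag
S100a9: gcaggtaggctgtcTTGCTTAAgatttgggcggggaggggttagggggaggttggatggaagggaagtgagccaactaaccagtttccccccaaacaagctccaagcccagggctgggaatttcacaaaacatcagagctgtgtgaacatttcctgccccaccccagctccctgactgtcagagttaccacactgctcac
Retnlg: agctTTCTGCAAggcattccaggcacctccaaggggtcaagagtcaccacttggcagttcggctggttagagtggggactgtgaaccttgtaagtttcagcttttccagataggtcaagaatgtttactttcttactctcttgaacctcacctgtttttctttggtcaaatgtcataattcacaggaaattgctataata
*Cxcl2* held 2 matches to the NF-κB motif, from 97 to 88 and from 78 to 69 bases before its start. Among 32851 stretches of the same length before all starts in the table, 1.05% held that motif, 8.11% the C/EBP motif and 5.57% the AP-1 motif. Of the 19 genes named as markers or for their fold, 16 had a stretch, and 1 held the NF-κB motif (*Cxcl2*), 3 the C/EBP motif (*Lcn2*, *Retnlg* and *S100a9*) and 1 the AP-1 motif (*Prok2*). The stretches printed above all held a match, while those of the other markers *S100a8*, *Ccl3*, *Il1b* and *Clec4d* held none. A match of letters is a description and shows no binding.

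The cluster was made from these genes, so the levels that follow describe it and are no test. *S100a9* (chromosome 3 from 90692632 to 90695721, GENCODE M21 on GRCm38) stood at 19963 CPM in cluster 13 and at 462, 156 and 155 CPM in clusters 14, 15 and 16. Its neighbour *S100a8* (chromosome 3 from 90668978 to 90670035) stood at 13612 CPM against 263, 158 and 55.8 CPM. Both subunits of calprotectin, which binds zinc and calcium and calls in further leukocytes, were thus far above the nearest other cluster, 43.2-fold (41.1 to 45.4) for *S100a9* and 51.7-fold (48.5 to 55.2) for *S100a8*. Of the 7 genes of the S100 list 2 were at least 2-fold higher and 1 at least 2-fold lower than in every other cluster, where 4.47% and 8.54% of all genes tested were. Counted as UMIs per cell 2 were higher and 3 lower, beside 0.899% and 54.5% of all genes. After subtraction of the scaled profile 3 were higher and 2 lower, beside 5.78% and 16.4%. *S100a4* was lower than in all 3 clusters, 130.2 CPM against 1068 to 1873, and *S100a6*, *S100a10*, *S100a11* and *S100a13* lay within 2-fold of at least 1 of them.

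*Cxcl2* (chromosome 5 from 90903871 to 90905938), a ligand of the neutrophil receptor CXCR2, was the most abundant marker, at 23503 CPM against 3193, 8065 and 90.5 CPM. *Ccl3* (chromosome 11 from 83647844 to 83649355), which attracts monocytes and neutrophils through CCR1, stood at 7593 CPM against 601, 978 and 98.2 CPM. *Il1b* (chromosome 2 from 129364570 to 129371139), the inflammatory cytokine that needs cleavage before its release, stood at 2736 CPM against 749, 665 and 7.70 CPM. *Clec4d* (chromosome 6 from 123262111 to 123275265), a lectin receptor for fungal and mycobacterial glycolipids, stood at 2164 CPM against 222, 622 and 13.5 CPM. These 4 genes were therefore shared with clusters 14 and 15 to a degree that calprotectin was not, with ratios over the nearest cluster of 2.91 (2.87 to 2.96) for *Cxcl2*, 7.76 (7.45 to 8.10) for *Ccl3*, 3.65 (3.48 to 3.83) for *Il1b* and 3.48 (3.29 to 3.69) for *Clec4d*. In UMIs per cell, with no scaling by the shallower total, *Cxcl2*, *Il1b* and *Clec4d* were lower in cluster 13 than in the highest other cluster, at 0.698, 0.907 and 0.833 of its level, while *S100a8* stood at 35.2 UMIs per cell against 2.74 in cluster 14.

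**Figure D2:**
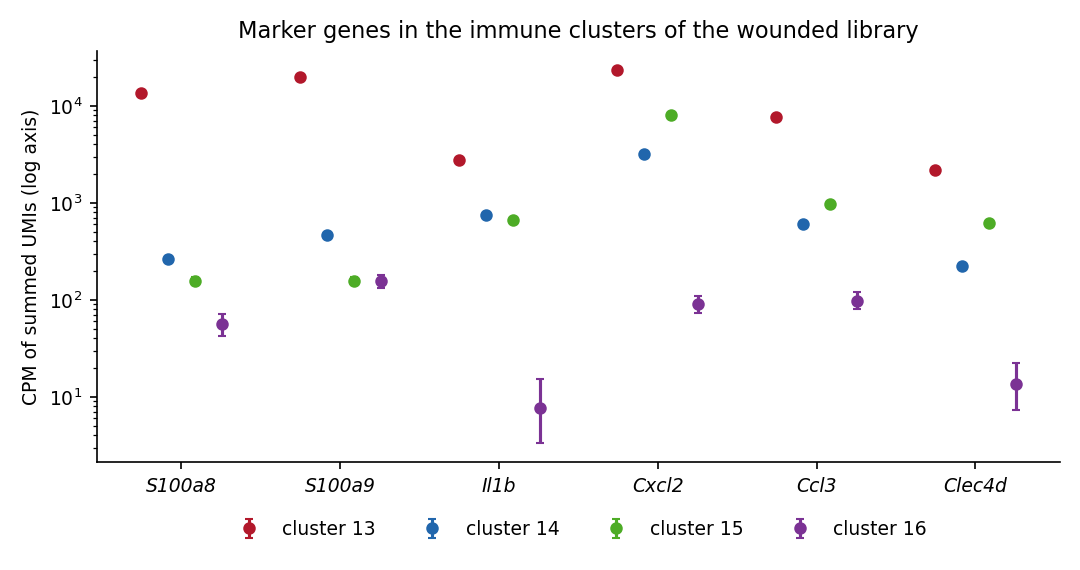
CPM of the summed UMIs on a log axis for the 6 marker genes in the immune clusters of W, with exact Poisson 95% intervals, many of them narrower than the points. In CPM all 6 are highest in cluster 13, while in UMIs per cell *Il1b*, *Cxcl2* and *Clec4d* are lower than in the highest other cluster, and calprotectin stands 43.2-fold or more above the next cluster where *Cxcl2* stands 2.91-fold above it.

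Thinned to 2000 UMIs, which leaves out 126 cells of the cluster, *S100a8* had a UMI in 90.4% (87.7 to 92.7) of the cells, *Ccl3* in 91.3% (88.7 to 93.4) and *Cxcl2* in 97.4% (95.8 to 98.6). Without thinning the shares were 91.7%, 91.1% and 97.3%. The share for *Ccl3* was 1.30% in 1000 thinned cells of clusters 0 to 11, that for *S100a8* 13.6% and that for *Cxcl2* 5.0%. *Cxcl2* had a UMI in 85.3% of the thinned cells of cluster 15 as well. Median depth before thinning was 2509.5 UMIs in cluster 13. Within the cluster the amounts spread widely. *S100a9* ran from 0 over a median of 25 to a highest of 468 UMIs per cell, *Cxcl2* from 0 over 34 to 688, and *Il1b* from 0 over 3 to 95. *Ccl3* ran from 0 over 8 to 270 UMIs, and the top 10% of cells held 50.6% of its UMIs, against 26.2% for *Clec4d*, which was the most even of the markers.

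Over the 11340 genes with at least 20 UMIs in the 4 clusters, 507 (4.47%) were at least 2-fold higher in cluster 13 than in each of the others and 969 (8.54%) at least 2-fold lower. A gene with no UMI in cluster 13 was never counted as higher, and one with no UMI in another cluster never as lower than it. The median log2 ratio of CPM over all these genes was -0.30, -0.18 and -0.41 against clusters 14, 15 and 16. The 10 most abundant genes held 18.8% of the UMIs of cluster 13. Scaling by TMM factors moved the split to 658 (5.8%) higher and 654 (5.77%) lower, with medians of -0.19, -0.07 and 0.04, and median-of-ratios factors moved it to 720 (6.35%) and 593 (5.23%), with medians of -0.05, -0.02 and 0.00. In UMIs per cell the medians were -2.31, -2.24 and -1.32, and 102 genes (0.899%) were higher and 6182 (54.5%) lower. Subtraction of the profile of clusters 0 to 11 scaled by keratins gave 655 (5.78%) higher and 1855 (16.4%) lower, and leaving out cells under 1000 genes or above 5% mitochondrial UMIs, a stricter cell filter, gave 505 (4.53%) and 985 (8.83%). Higher and lower below therefore mean a larger or smaller share of the cluster's UMIs. Where a list's counts differ in UMIs per cell they are given beside it, and those after subtraction where they move by over 1.5 times, to be read beside these shares over all genes.

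**Figure D3:**
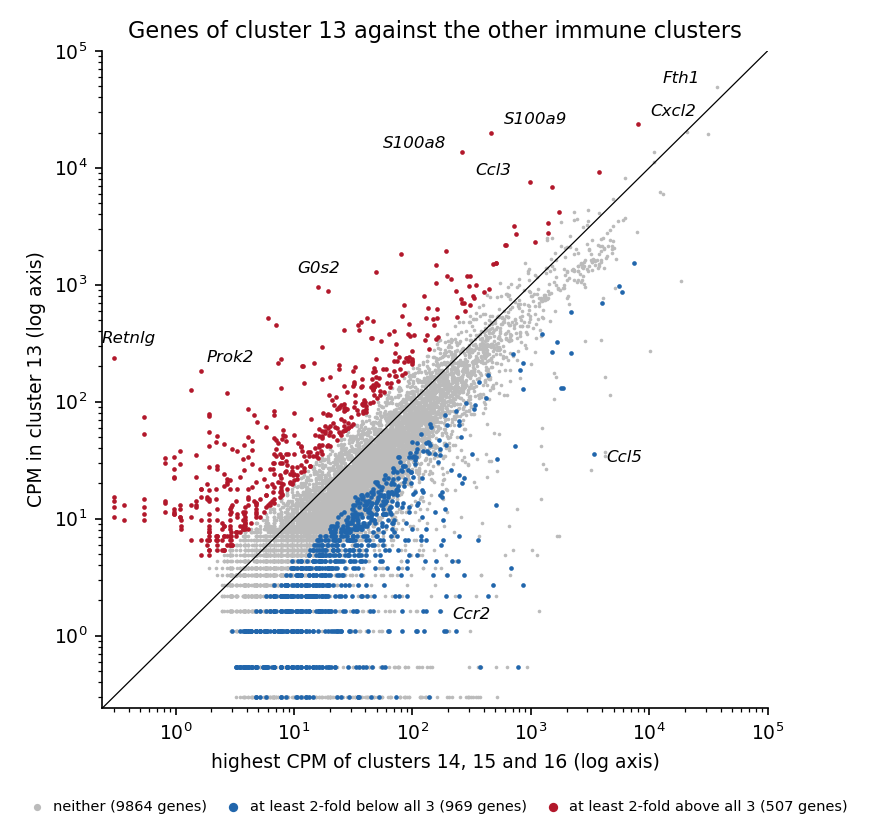
CPM in cluster 13 against the highest CPM of clusters 14, 15 and 16, both on log axes, for the 11340 genes tested, with values under 0.3 CPM drawn at 0.3. Red points are the 507 genes at least 2-fold above all 3 clusters, blue points the 969 genes at least 2-fold below all 3, and the line marks equal levels.

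The 15 genes with the largest ratio of CPM over the highest of the other clusters, among those of at least 100 CPM, included *Retnlg*, a resistin-like protein of maturing neutrophils. It had 436 UMIs in cluster 13, 1 in cluster 14 and 0 in clusters 15 and 16. *Prok2*, the prokineticin known as Bv8, had 337 UMIs against 6, 1 and 1, and its level was 113-fold (51.3 to 309.5) that of cluster 14. Both came from few cells. *Retnlg* had a UMI in 10.7% of the cells and *Prok2* in 6.06%, and the top 10% of cells held 98.9% and 100% of their UMIs. *Lrg1*, a leucine-rich glycoprotein stored in neutrophils, was spread more evenly, with 56.0% of its UMIs in the top 10% of cells, and stood at 454 CPM against 7.05, 0.738 and 0 CPM. *G0s2*, an inhibitor of lipolysis, stood at 949.6 CPM and had 1743 UMIs against 59, 7 and 2, and *Hcar2*, the receptor for niacin and hydroxybutyrate, at 1291 CPM against 49.7, 43.9 and 9.62 CPM. *Cxcr2* itself (chromosome 1), the receptor for CXCL2, stood at 119 CPM against 2.71, 0.369 and 0.962 CPM. The stefin genes *Stfa2l1* (524 CPM against 5.97 CPM in cluster 14) and *Gm5483* (882 against 19.3 CPM) belong to a family of near-identical copies, so that how their reads were divided is uncertain. The transcripts of unknown role *F630028O10Rik*, *E230032D23Rik*, *4833407H14Rik* and *AC110211.1* were also among the 15, at 125 to 234 CPM.

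The most abundant gene was *Fth1*, the heavy chain of the iron store ferritin, at 49125 CPM (48805 to 49447) against 21155, 37017 and 4851 CPM. It was 2.32-fold above cluster 14 and 1.33-fold above cluster 15, and *Ftl1*, the light chain, was 1.92-fold above cluster 14 and close to cluster 15 at 1.01-fold, while in UMIs per cell *Fth1* stood at 127 in cluster 13 against 220.2 and 399.7 in clusters 14 and 15.

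Only 2 of 5 azurophil granule genes had enough UMIs to be tested, and neither was higher or lower than in every other cluster. There was 1 UMI of *Mpo* (myeloperoxidase), 0 of *Elane* (elastase) and 2 of *Prtn3* (proteinase 3) in 710 cells. *Ctsc*, the protease that activates these enzymes, was lower than in clusters 14 and 15, at 59.4 CPM against 496 and 1252 CPM. Of the 11 specific and gelatinase granule genes tested, 7 were at least 2-fold higher than in every other immune cluster and none lower, where 4.47% and 8.54% of all genes were, with a median log2 ratio of 3.72 against cluster 14 and 3.13 against cluster 15. In UMIs per cell 6 were higher and 1 lower, beside 0.899% and 54.5% of all genes. *Lcn2*, the lipocalin that withholds iron from bacteria, led them at 1829 CPM (1768 to 1892) against 79.2, 68.6 and 18.3 CPM. *Hp* (haptoglobin) stood at 672 CPM, *Mmp9* (gelatinase B) at 524 CPM and *Wfdc21* at 494 CPM, each at least 7.95-fold above the nearest cluster. The antimicrobial granule proteins were sparse. *Camp*, the cathelicidin, had 72 UMIs and *Ltf*, lactoferrin, 65, in 3.66% and 7.89% of the cells. *Ly6g*, the surface protein by which mouse neutrophils are usually sorted, had 28 UMIs in 2.82% of the cells and 0 in the other 3 clusters, where a count of 0 allows up to 3. *Mmp8* and *Chil3* were not particular to the cluster, at 43.0 and 54.5 CPM against 43.5 and 58.7 CPM in cluster 15.

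In the interleukin-1 family 7 of 13 genes were at least 2-fold higher than in all 3 other clusters and 1 lower, where 4.47% and 8.54% of all genes were. Its median log2 ratio was 1.87 against cluster 14 and 1.45 against cluster 15. In UMIs per cell 2 genes were higher and 2 lower, beside 0.899% and 54.5% of all genes. Besides *Il1b*, the cells held *Il1a* at 271 CPM against 86.8, 99.6 and 22.1 CPM. Among the brakes of the pathway *Il1rn*, the receptor antagonist, stood at 1177 CPM, 4.07-fold (3.74 to 4.42) above cluster 15, and *Il1r2*, the decoy receptor, at 807 CPM, 6.49-fold (5.84 to 7.22) above cluster 14 and 66.3-fold above cluster 15. The signalling receptor *Il1r1* had 12 UMIs, while its partner *Il1rap* stood at 144 CPM against 12.2, 8.12 and 10.6 CPM. *Il1f9*, the table's name for interleukin-36 gamma, stood at 215 CPM against 14.7, 1.84 and 4.81 CPM. For the machinery that cleaves IL-1β, the sensor *Nlrp3* stood at 699.6 CPM against 151, 262 and 7.70 CPM and the protease *Casp1* was the 1 lower gene, at 8.72 CPM (4.98 to 14.2) from 16 UMIs against 19.3 to 35.0 CPM. With median-of-ratios factors or the stricter cell filter no gene of the list was counted as lower.

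In the chemokine list, which holds the receptor gene *Ccrl2* as well, 4 of 18 genes were higher than in every other cluster and 1 lower, beside 4.47% and 8.54% of all genes. Against clusters 14 and 15 alone 4 were higher and 8 lower, where 6.86% and 13.8% of all genes were. The 4 were *Cxcl2*, *Ccl3*, *Ccl4* and *Ccrl2*. In UMIs per cell 1 gene of the list was higher and 4 lower than in every other cluster, beside 0.899% and 54.5% of all genes. *Ccl4*, the neighbour of *Ccl3* with like receptors, stood at 9141 CPM against 2463, 3750.4 and 445 CPM, and in UMIs per cell it was 0.584 of the level in cluster 15. *Ccrl2*, a receptor that binds chemerin without signalling, stood at 1486 CPM, 9.48-fold (8.55 to 10.5) above cluster 15. Other ligands of CXCR2 did not follow *Cxcl2*. *Cxcl3* stood at 996 CPM, between cluster 14 (618) and cluster 15 (1640), and *Cxcl1* at 198 CPM, like cluster 14 (195) and under cluster 15 (460.5). *Ccl7* stood at 163 CPM against 843 and 4213 CPM in clusters 14 and 15, *Ccl2* at 935 CPM against 1193 and 5168, and *Ccl12* at 5.45 CPM against 189 and 1016. *Ccl5*, which attracts T cells, was lower than in all 3, at 36.0 CPM against 602, 631 and 3390.2 CPM, and *Cxcl10*, which interferon induces, was at 160.2 CPM against 641 and 807 CPM in clusters 14 and 15.

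Of the receptors that guide neutrophils, 6 of 11 tested genes were above every other cluster and 1 was below, where 4.47% and 8.54% of all genes were, and the other 4 passed in neither direction. Per cell, 1 was above and 1 below in UMIs, beside 0.899% and 54.5% of all genes. *Ccr1*, a receptor for CCL3, was the most abundant at 1189.9 CPM against 149, 196 and 8.66 CPM. *Ptafr*, for platelet-activating factor, stood at 449.5 CPM, and *Cxcr4*, which holds neutrophils in the marrow, at 374 CPM against 104, 70.5 and 87.6 CPM. The formyl peptide receptors *Fpr1* and *Fpr2* stood at 114 and 135 CPM, 3.52-fold (2.73 to 4.57) and 2.83-fold (2.28 to 3.53) above cluster 15. *C5ar1*, for the complement fragment C5a, did not separate the cluster from cluster 15, at 392 against 446 CPM. The 1 lower receptor was *Ccr2*, which marks inflammatory monocytes, with 3 UMIs against 408, 462 and 158. Of the 12 growth factor receptors 2 were above every cluster and none below, beside 4.47% and 8.54% of all genes. In UMIs per cell 1 was above and 3 were below, beside 0.899% and 54.5%. After subtraction 4 were above and none below, beside 5.78% and 16.4%. *Csf3r*, the receptor for G-CSF, stood at 409 CPM against 18.4, 35.4 and 0.962 CPM, and *Csf1r*, the receptor of macrophages, at 29.4 CPM against 115 and 218 CPM in clusters 14 and 15.

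Of the pattern receptors and their signalling partners, 10 of 16 were higher than in every other cluster and none lower, beside 4.47% and 8.54% of all genes, with median log2 ratios of 1.96, 1.65 and 5.67. In UMIs per cell 3 were higher and none lower, beside 0.899% and 54.5% of all genes. *Clec4e*, or Mincle, the partner of *Clec4d*, stood at 1504 CPM, 3.15-fold (2.95 to 3.37) above cluster 15. *Trem1*, which amplifies the response to bacteria, stood at 454 CPM against 30.4, 34.7 and 0 CPM, and its relative *Trem3* at 158 CPM against 11.9, 17.3 and 0 CPM. Their adaptor *Tyrobp* stood at 3414 CPM, 1.91-fold above cluster 15, so short of 2-fold. *Cd14* and *Tlr2* were at the level of cluster 15, 1635 against 1629.8 CPM and 175 against 169 CPM. *Tlr4*, *Tlr6* and *Tlr13* were low but above every other cluster, at 56.7, 45.8 and 90.4 CPM.

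The oxidase that makes the burst of reactive oxygen was uneven. *Cybb*, its catalytic subunit, stood at 31.1 CPM (23.5 to 40.2) against 331 and 441 CPM in clusters 14 and 15, and its partner in the membrane, *Cyba*, at 486 against 829 and 1448 CPM. Of the cytosolic subunits *Ncf1* stood at 123 CPM against 34.5 and 52.8 CPM and *Ncf4* at 278 against 143 and 189 CPM. Only *Ncf1* of the 6 genes passed 2-fold against every cluster, as higher, where 4.47% of all genes were higher and 8.54% lower. In UMIs per cell none passed, beside 0.899% and 54.5%. Against clusters 14 and 15 alone 1 was higher and 1 lower, beside 6.86% and 13.8%. Among genes for uptake and antibody receptors, 3 of 14 tested were higher than in all clusters and none lower, beside 4.47% and 8.54%. They were *Cd300lf* at 331 CPM, *Lilrb4a* at 100.2 CPM and *Sirpb1b*, whose near-identical relatives make its value uncertain. With clusters 14 and 15 alone 3 were higher and 3 lower, beside 6.86% and 13.8%. None was higher or lower in UMIs per cell, beside 0.899% and 54.5%. *Fcgr1* and *Msr1*, receptors of macrophages, were near 0, at 8.72 and 3.27 CPM against 648 and 377 CPM in cluster 15.

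For adhesion, 2 of 12 genes were above every other cluster and none below, beside 4.47% and 8.54% of all genes, and in UMIs per cell none was above and 3 were below, beside 0.899% and 54.5%. Among them *Cd44*, a receptor for hyaluronan, stood at 997 CPM against 274, 290.4 and 343 CPM. The integrin genes *Itgam* and *Itgb2*, which form the receptor Mac-1, were at 158 and 158.5 CPM and under cluster 15, with 432 and 249 CPM. Genes of antigen presentation were low beside clusters 14 and 15. All 7 class II genes were lower than in both, where 13.8% of all genes were. *H2-Aa* stood at 34.3 CPM (26.4 to 43.9) against 4219 and 1059 CPM and *Cd74*, the invariant chain, at 273 against 10162 and 3614 CPM. Only 1 of the 7 was lower than in every cluster, beside 8.54% of all genes. The median log2 ratio of the 7 against cluster 16 was 0.68.

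Transcription factors of the C/EBP family, which drive granulocyte genes, were 3 of the 5 factors above every cluster among 26 tested, with 1 below, beside 4.47% and 8.54% of all genes. UMIs per cell gave none above and 4 below, beside 0.899% and 54.5%, and subtraction 5 above and 2 below, beside 5.78% and 16.4%. *Cebpb* stood at 4174 CPM (4082 to 4269) against 1032, 1711 and 322 CPM, *Cebpd* at 309 CPM against 60.8, 72.3 and 32.7 CPM and *Cebpe*, the factor for specific granules, at 31.1 CPM from 57 UMIs. The others were *Klf2* (978 CPM against 166, 221 and 302 CPM) and the immediate early gene *Egr1* (373 CPM against 134, 95.6 and 101 CPM). *Irf8*, which directs monocytes and dendritic cells, was the 1 lower factor with 4 UMIs against 712, 351 and 29.

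Of the NF-κB targets and feedback genes, 2 of 17 were above every cluster and none below, where 4.47% and 8.54% of all genes were, with median log2 ratios of 0.58, 0.34 and 0.53. None was above and 3 were below in UMIs per cell, beside 0.899% and 54.5% of all genes. After subtraction 4 were above and none below, beside 5.78% and 16.4%. *Nfkbia*, the inhibitor that NF-κB itself induces, stood at 3366 CPM, 2.41-fold (2.28 to 2.56) above cluster 16, and *Tnfaip2* at 615 CPM, 3.83-fold (3.42 to 4.29) above cluster 15. *Ier3* (2513 CPM against 790.2 and 1502 in clusters 14 and 15) and *Tnf* (345 against 119 and 211 CPM) were within 2-fold of cluster 15. Among interferon-stimulated genes 3 of 22 were higher and 1 lower, beside 4.47% and 8.54% of all genes. In UMIs per cell none was higher and 4 were lower, beside 0.899% and 54.5%. After subtraction 6 were higher and 1 lower, beside 5.78% and 16.4%. The higher ones in CPM were the schlafens *Slfn4* (632 CPM against 58.6, 134 and 6.74 CPM) and *Slfn1* (399 against 28.5, 69.4 and 54.9 CPM) and the antiviral membrane protein *Ifitm2*, at 2792 CPM. *Isg15* and *Rsad2* were at 259 and 269.7 CPM, 1.57-fold and 1.33-fold over cluster 15. *Mx1*, a GTPase against viruses, had 3 UMIs against 85, 119 and 9.

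Genes of survival and death gave 4 of 15 above every cluster and 1 below, beside 4.47% and 8.54% of all genes. None was above and 5 were below in UMIs per cell, beside 0.899% and 54.5%. After subtraction 4 were above and 2 below, beside 5.78% and 16.4%. *Fas*, the death receptor, stood at 229.9 CPM against 17.9, 30.6 and 49.1 CPM, *Bcl2l11*, the death-promoting protein BIM, at 336 CPM against 113, 128 and 86.6 CPM and *Bid* at 36.0 CPM against 6.78, 8.49 and 4.81 CPM. The fourth, *Bcl2a1a*, shares its sequence with *Bcl2a1b* and *Bcl2a1d*, and its value is uncertain. *Mcl1*, on which neutrophil survival depends, was abundant at 1859 CPM but 1.17-fold over cluster 15. *Casp8* was the 1 lower gene, at 13.6 CPM against 32.6 to 49.1 CPM, and with TMM or median-of-ratios factors no gene of the list was counted as lower.

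None of 20 nuclear genes of oxidative phosphorylation passed 2-fold in either direction, and their median log2 ratios of -0.42, -0.38 and -0.41 lay near those of all genes. In UMIs per cell 16 of the 20 were lower, where 54.5% of all genes were, and after subtraction 3 were lower, where 16.4% were. In glycolysis 2 of 24 were higher and none lower, beside 4.47% and 8.54% of all genes, with median log2 ratios of -0.03, -0.81 and 0.29. None was higher and 10 were lower in UMIs per cell, where 54.5% of all genes were lower. After subtraction 2 were higher and 1 lower, beside 5.78% and 16.4%. The higher ones in CPM were *Slc2a3*, the glucose carrier GLUT3, with 106 UMIs against 16, 0 and 28, and *Pfkfb4*, at 36.5 CPM against 15.2, 15.5 and 5.77 CPM. *Gapdh*, an enzyme that all cells use, stood at 988 CPM against 1260.5 and 1916 CPM in clusters 14 and 15. None of the 14 cell cycle genes was higher than in every cluster and 1, *Mcm3*, was lower, beside 4.47% and 8.54% of all genes. TMM factors gave 2 higher and none lower, beside 5.8% and 5.77%. UMIs per cell gave none higher and 3 lower, beside 0.899% and 54.5%. Against clusters 14 and 15 alone 5 were higher and 1 lower, beside 6.86% and 13.8%. *Mki67* had 32 UMIs, 17.4 CPM, where the scaled profile of clusters 0 to 11 gives 14.9 CPM.

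Of the factors for repair, 2 of 20 tested were higher than in all clusters and 1 was lower, beside 4.47% and 8.54% of all genes. None was higher and 4 were lower in UMIs per cell, beside 0.899% and 54.5%. After subtraction 2 were higher and 2 lower, beside 5.78% and 16.4%. Against clusters 14 and 15 alone 2 were higher and 5 lower, beside 6.86% and 13.8% of all genes. Among the higher ones *Plek* stood at 769 CPM against 240.4, 332 and 27.9 CPM. The matrix protein *Spp1* (osteopontin) stood at 3178 CPM, between clusters 14 (1415) and 15 (4928), and was uneven, with a median of 0 and a highest of 151 UMIs per cell. The 1 lower than in every cluster was *Pdgfb*, a growth factor for fibroblasts and vessel wall cells, with 3 UMIs against 115, 48 and 10. No UMI of *Il6* was found. Of the proteases and their inhibitors, 5 of 23 were higher, *Mmp9*, the stefins *Stfa1*, *Stfa2* and *Stfa2l1* and *Slpi*, the inhibitor of elastase, at 3178 CPM, 4.44-fold (4.21 to 4.67) over cluster 15. None of the list was lower, where 4.47% of all genes were higher and 8.54% lower. In UMIs per cell 3 of the list were higher and 3 lower, beside 0.899% and 54.5%. Against clusters 14 and 15 alone 5 were higher and 5 lower, beside 6.86% and 13.8%. Among lipid mediators *Alox5*, the enzyme that starts leukotriene synthesis, was the 1 of 11 above every cluster, with 55 UMIs, and none was below. Over all genes 4.47% were above and 8.54% below. The partner of *Alox5*, *Alox5ap*, at 544 CPM was level with cluster 15 at 524 CPM. *Ltc4s* had no UMI. None of the list was higher and 2 were lower in UMIs per cell, beside 0.899% and 54.5% of all genes. After subtraction 2 were higher and none lower, beside 5.78% and 16.4%. Against clusters 14 and 15 alone 1 was higher and 2 lower, beside 6.86% and 13.8%.

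**Figure D4:**
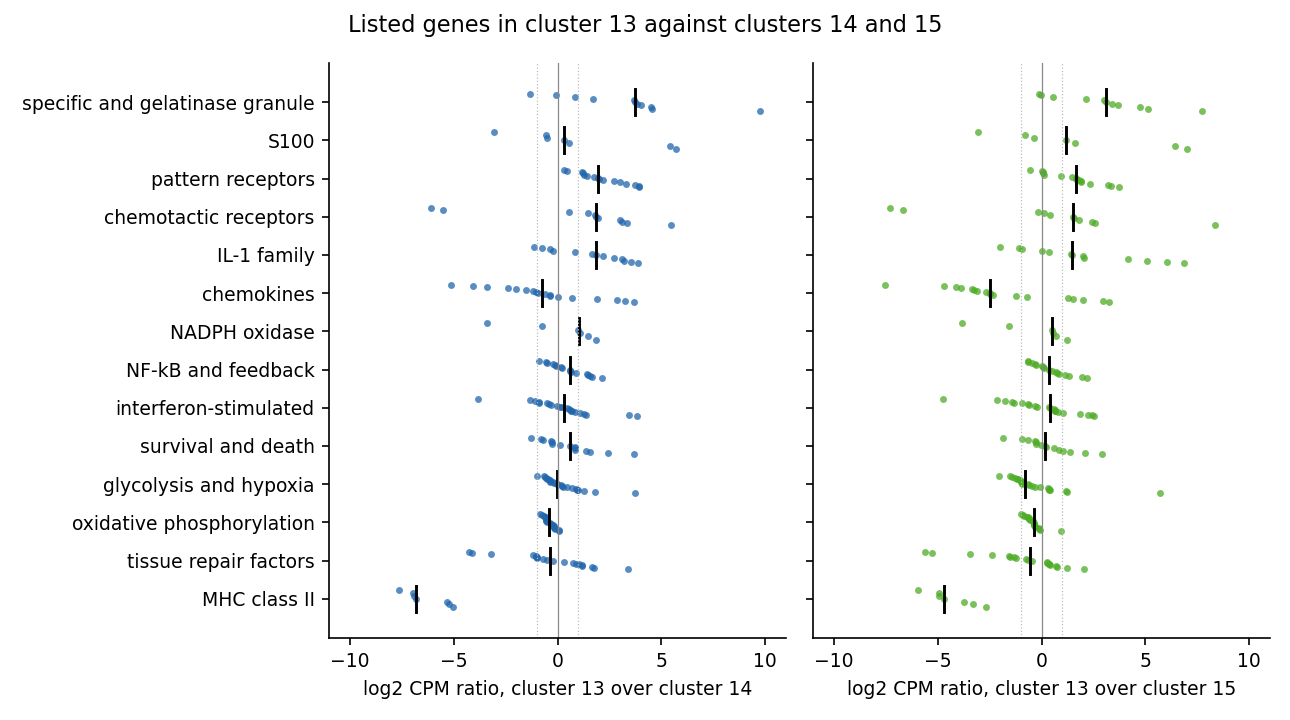
Log2 ratio of CPM in cluster 13 over cluster 14 (left) and cluster 15 (right) for the tested members of 14 gene lists, 1 point per gene, with a black bar at each list's median, a solid line at equal levels and dotted lines at 2-fold. Granule, pattern receptor and interleukin-1 genes lie mostly to the right, chemokines spread to both sides and the 7 class II genes all lie to the left.

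The genes that were lowest in the cluster relative to all others, among those of at least 100 CPM in each, were led by *Ccr2*. After it came *Ms4a6b*, with 5 UMIs in cluster 13 and 183, 483 and 239.6 CPM in the others, *Il7r*, the interleukin-7 receptor, with 4 UMIs, *Cd48*, an adhesion ligand, with 6 and *AW112010* with 7. *Got1*, an aminotransferase of the malate-aspartate shuttle, had 18 UMIs against 181, 124 and 148 CPM, 12.6-fold (7.85 to 21.5) less than in cluster 15. *Ptpn18*, *S100a4* and *Crip1* completed the 10 with *Ccl5*, at 32.7, 130.2 and 131 CPM and 4.77-fold or more under the nearest cluster.

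To see how the cells varied, the 584 cells of at least 2000 UMIs were split into a low, a middle and a high group by their summed UMIs of 11 granule genes after thinning. A group is a range of the score and not a cell type, and 82 cells had a score equal to a border. The low group scored 0 to 3, with a median of 2, and the high group 8 to 52, with a median of 13, at median depths of 2494 and 2744 UMIs. Of 1229 further genes of at least 100 CPM, 11 (0.895%) were at least 2-fold higher in the high group and 8 (0.651%) at least 2-fold lower. Those higher included *Prok2*, at 337 against 69.7 CPM, 4.84-fold (3.39 to 7.08), *Fpr1* at 201 against 58.4 CPM, *Slpi* at 4678 against 1910.0 CPM and *Lyz2*, lysozyme, at 1594 against 588 CPM. *St3gal6*, *Chil1*, *F10* and *Fyb* were 2.19 to 2.68-fold higher. Those lower included *Cxcl10*, at 100.4 against 249 CPM, and *Rgs1*, with 53 against 119 UMIs. *Irf1* stood at 89.6 against 185 CPM and *H2-Eb1* at 57.4 against 145 CPM, and *Fgl2*, *Gngt2*, *Cdk11b* and *Ccl7* were lower as well. In the whole cluster the top 10% of cells held 98.6%, 100% and 96.0% of the UMIs of *Cxcl10*, *Rgs1* and *Ccl7*. Single cells held up to 72, 28 and 51 of them, and up to 61 of *Prok2*, so few cells could carry these ratios. *Ccl7* was highest in the middle group, at 315 CPM, and was 2.68-fold higher in the high than in the low group when cells were thinned to 1000 UMIs. That split also takes in cells under 2000 UMIs, and the cause of the turned direction was not tested. *Il1b* differed little, at 2878 against 2705 CPM, and *Ccl3* stood at 10856.5 against 5896 CPM, 1.84-fold (1.76 to 1.92). Keratins stood at 9103 CPM in the high and 10638.5 CPM in the low group, and 4 class II genes at 518 and 452 CPM.

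**Figure D5:**
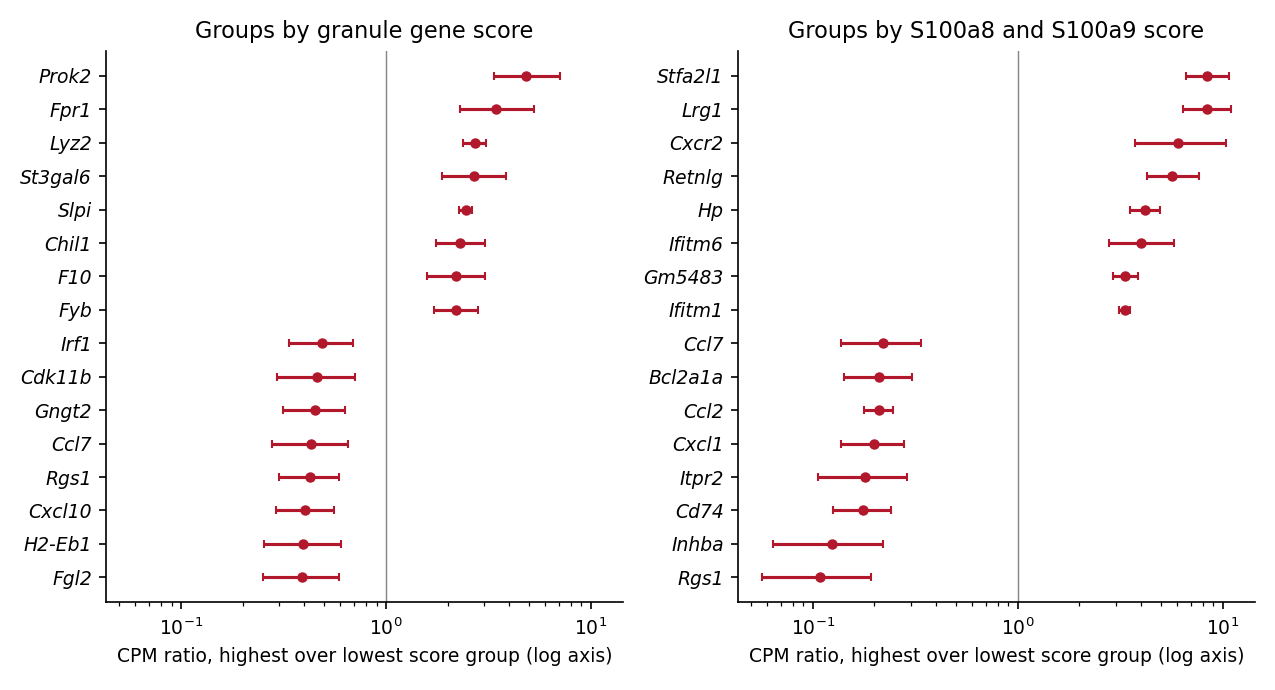
CPM ratio of the high over the low group of cluster 13 cells on a log axis, with 95% counting intervals, for groups by granule gene score (left) and by the summed UMIs of *S100a8* and *S100a9* (right). The 8 genes of at least 100 CPM in cluster 13 that differ most in each direction are shown. On the right CPM was computed on totals without *S100a8* and *S100a9*. The genes of each score are left out, and the largest ratios among the genes shown are 4.84 for *Prok2* on the left and 8.40 for *Stfa2l1* on the right.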

How the data were processed

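The libraries were made with a droplet kit that counts RNA molecules by UMI. The authors aligned the reads and counted UMIs with Cell Ranger 3.1.0, clustered both libraries together in Seurat, and state that they took out doublets and cells marked by dissociation stress. Cells that an earlier doublet column names remain in the deposited table. The deposited table holds raw counts per cell with cluster numbers in a second table, and no column of per-sample values was left unused (0). The labels name mm9 and a v3 kit where the methods name mm10 and a V2 kit, and no coordinate of the authors was used. Gene positions are from GENCODE M21 on GRCm38, where 19908 of the table's genes were found by symbol, and promoters are from RefSeq on GRCm38.p6.

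UMIs were summed per cluster and given as CPM with exact Poisson intervals. Ratios have exact conditional intervals, shares exact Clopper-Pearson ones, all at 95%. A count of 0 stood at a floor of 3 counts. With 1 library per condition no test was made, and a gene of at least 20 summed UMIs was counted as higher or lower at 2-fold. Shares of cells with a UMI are from cells thinned to 2000 UMIs where the text says so, and otherwise from cells that were not thinned. Genes named are the 6 markers, the 15 highest by ratio and the 10 most abundant in cluster 13, the 10 lowest by ratio (each at 100 CPM or more where ranked by ratio), the most abundant members of each list with those at 0, and the 8 with the largest ratios in each direction between the groups by granule score. Other list members are named where they passed 2-fold or bear on a comparison, and were chosen after their values were seen. A few list members that the rule would name are not reported here. The members and lists were chosen with earlier results of these data known. Alternatives were TMM factors (edgeR 4.0.16 in R 4.3.3), median-of-ratios factors, UMIs per cell, means of single-cell CPM, other filters, thresholds and thinning depths. Python 3.11.15 with numpy 2.4.6, scipy 1.17.1, pandas 2.3.3 and matplotlib 3.10.9 was used.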

Additional observations from a re-analysis of the deposited data

How the results depend on the processing

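Against 507 genes higher and 969 lower in cluster 13, median-of-ratios factors gave 593 lower, UMIs per cell gave 102 higher and 6182 lower, and a 4-fold threshold gave 185 higher and 206 lower. Subtraction of the profile of clusters 0 to 11 scaled by keratins gave 1855 lower, and clusters 14 and 15 alone gave 1502 lower. The other counts were within 1.5 times the main ones, at 504 to 748 higher under subtraction, clusters 14 and 15 alone, TMM factors (658), median-of-ratios factors (720), means of single-cell CPM, all genes with at least 1 UMI, the stricter cell filter or the removal of cells with another type's marker, and at 654 to 998 lower where not given above. The share of the library was 4.42% when cells under 1000 genes or above 5% mitochondrial UMIs were left out, and 5.79% without cells named doublets. In UMIs per cell the ratio over the nearest cluster turned to 0.907 for *Il1b*, 0.698 for *Cxcl2*, 0.833 for *Clec4d* and 0.584 for *Ccl4*, which follows from leaving out the division by each cluster's total. The ratio of *Ccl7* between the groups by granule score turned to 2.68 when cells were thinned to 1000 UMIs, and the cause was not tested.

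The planned removal of cells with any T cell, monocyte or epithelial marker left 0 cells and could not be run. A narrower removal, which left 649 of 710 cells, the subtraction, the comparison with clusters 14 and 15 alone and the groups by calprotectin were chosen after seeing the data. No paired analysis was possible because each condition has 1 library. Genes with few UMIs in a cluster are limited by depth, and no value carries the spread between animals.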

Other observations

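The cells of cluster 13 were also split into a low, a middle and a high group by their summed UMIs of *S100a8* and *S100a9* after thinning, a split chosen after seeing the data and given as a description. The low group scored 0 to 20 and the high group 89 to 463, at median depths of 2728 and 2664.5 UMIs, and 9 cells had a score equal to a border. For this split CPM was computed on totals without the UMIs of *S100a8* and *S100a9*, so its levels are not on the scale of the other CPM values. Of 1277 further genes of at least 100 CPM, 52 (4.07%) were at least 2-fold higher in the high group and 36 (2.82%) at least 2-fold lower.

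Of the 9 specific and gelatinase granule genes with at least 20 UMIs in the low and high groups, 3 were at least 2-fold higher in the high group and 2 at least 2-fold lower, where 5.15% and 5.03% of all 5026 such genes were. *Retnlg*, *Hp* and *Mmp8* were the higher ones, and *Ltf* and *Camp* stood at 0.205 and 0.261 of their level in the low group, with *Lcn2* at 0.554 and *Wfdc21* at 0.619. Of the 8 genes with the largest ratios among those of at least 100 CPM, *Stfa2l1* stood at 1126 against 134 CPM, 8.40-fold (6.61 to 10.8), *Lrg1* at 933 against 112 CPM, *Cxcr2*, the receptor for CXCL2, at 209 against 34.4 CPM and *Retnlg* at 584 against 103 CPM. *Hp* (haptoglobin) was 4.16-fold and *Ifitm1*, an antiviral membrane protein, 3.32-fold (3.11 to 3.55) higher, with *Ifitm6* and *Gm5483* between 3.35-fold and 3.99-fold.

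Of the 14 chemokine genes with as many UMIs, 10 were at least 2-fold lower in the high group and none higher, where 5.03% and 5.15% of all such genes were. Their median log2 ratio was -1.38 against 0.03 over all such genes, and the receptor gene *Ccrl2* of the same list was lower as well. *Ccl3* stood at 12585 CPM in the low group, 6812 in the middle and 4422 in the high group, and *Ccl4* at 13556, 9296 and 5574 CPM. *Cxcl2* was short of 2-fold, at 33485, 22868 and 16920 CPM, and *Ccl6*, *Ccl8* and *Cxcl5* lay between 0.812 and 0.944 of the low group. *Ccl2*, an attractant of monocytes, stood at 1777, 630.3 and 374 CPM. *Cxcl1* and *Ccl7* were 5.06-fold and 4.56-fold higher in the low group. *Il1rn*, the interleukin-1 receptor antagonist, stood at 1984, 1141 and 584 CPM, whereas *Il1b* differed little, at 2906, 3332 and 2526 CPM. *Rgs1*, *Inhba*, *Itpr2* and *Bcl2a1a* were 4.75 to 9.22-fold higher in the low group. *Cd74*, the invariant chain of class II molecules, was 5.68-fold (4.14 to 7.95) higher there, and class II genes with *Cd74* summed to 758, 407 and 264 CPM, while keratins summed to 9855, 10348 and 10289 CPM. The part of RNA from other cells in these differences was not tested.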
